A study of Mus musculus with 4 samples.

Results

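The secreted products of goblet cells were followed through organoid cells of mouse intestine as 10 genes, matched by symbol among the 31040 features of the deposited matrices (10 of 10 found, each under 1 identifier). Goblet cells are the mucus-making cells of the intestinal lining: they fold, glycosylate, pack and release the gel-forming mucin that separates the epithelium from bacteria. The gel is built on Muc2, its core mucin. Fcgbp, a large mucus protein, Clca1, a secreted protease that processes the gel, and Zg16, a lectin that binds bacterial walls, are packed with it. Agr2 is a disulfide isomerase of the endoplasmic reticulum needed to fold mucin, and Gcnt3 is a Golgi enzyme that branches mucin sugars. Tff3 is the trefoil peptide of intestinal goblet cells, Spink4 is a small secreted protein of the Kazal family of protease inhibitors, and Ccl6 and Ccl9 are CC chemokines.

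RNA of single cells was measured on the 10x droplet platform in 4 libraries of organoids, cultures grown from intestinal crypts of 2 mice aged 10 weeks. All cultures carried floxed alleles, Cbl flox/flox and Cbl-b flox/flox, with R26Cre ERT2, a tamoxifen-activated Cre under a ubiquitous promoter. Knockout libraries (n = 2) came from cultures given 4-hydroxytamoxifen at 400 nM for 3 days, and control libraries (n = 2) from cultures given none, so the drug, the active Cre and the loss of both genes cannot be told apart. The 2 genes encode E3 ubiquitin ligases that help switch off growth factor receptors, and their loss in the epithelium is what the knockout comparison addresses. The numbers 1 and 2 mark the 2 mice, each of which gave 1 library per group.

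Totals ran from 22139560 to 35592468 UMIs per library, 1 UMI standing for 1 counted RNA molecule, and 682 to 1903 cells were retained per library with medians of 16080.0 to 27457.5 UMIs per cell. The libraries shared 2 barcodes. Levels are given in CPM, the UMIs of a gene per 1000000 UMIs summed over the cells of a class in a library, and where 2 values stand for a group, library 1 comes first. In goblet-like cells Cbl was at 16.2 and 18.8 CPM in the controls against 10.7 and 8.7 in the knockouts, and Cblb at 13.4 and 6.39 CPM in the controls against 3.92 and 1.35 in the knockouts. Both knockouts lay below both controls for each gene, but which exons were deleted is not given in the sources used here, so a transcript without them could still be counted.

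Cell classes were named from marker lists that hold none of the 10 genes, after clustering without them. Clusters 2 (448 cells, led by Ramp1, Selenom, Tpsg1, Mmp7 and Ern2) and 12 (259 cells, led by Atoh1, Creb3l1, Spdef, Txndc5 and Selenom) were goblet-like, which gave 186, 97, 144 and 280 cells in controls 1 and 2 and knockouts 1 and 2. All 20 goblet markers reached 10 CPM in every library there, but so did 19 of them in Paneth-like cells. The 20 summed to 2683 to 3506 CPM in goblet-like and 2134 to 2729 CPM in Paneth-like cells, ranges that overlap. Cell-cycle genes split these cells at 14.97 cycle UMIs per 10000 into non-dividing ones (134, 69, 80 and 129 cells) and dividing ones (52, 28, 64 and 151 cells). Of the 707 goblet-like cells, 69 lay within 0.5 log2 units of that limit. The split largely followed the clusters: 231 of the 259 cells of cluster 12 were dividing (89.2%), against 64 of the 448 of cluster 2 (14.3%). Comparing the states is thus largely comparing these clusters. The states are set by a limit and were not shown to be types. Non-dividing cells take the place of mature goblet cells here, but the labels do not state their maturity and it was not tested. Markers of Paneth cells, the antimicrobial neighbours of stem cells, were also present: the 18 of them summed to 74871 and 92602 CPM in the controls against 48277 and 66015 in the knockouts, against 326310 to 422265 CPM in Paneth-like cells. Non-dividing goblet-like cells alone had 92620 to 113505 CPM of these markers, so they are not shown to be goblet cells only. Whether mixed droplets or shared expression carry the Paneth markers was not tested.

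The sequences of 4 promoters are shown for these reasons: Fcgbp and Agr2 moved in opposite directions in knockout goblet-like cells, and Ccl6, which fell there, has the chemokine gene Ccl9 as a neighbour. Each is the 250 bases before the start site in RefSeq (GRCm38.p6), 5′ to 3′ on the gene's strand, at chr7:28070986-28071235, plus strand (Fcgbp), chr12:35992675-35992924, plus strand (Agr2), chr11:83593088-83593337, minus strand (Ccl6) and chr11:83578637-83578886, minus strand (Ccl9). Of the 10 genes, 5 matched the table of promoters. Capitals mark the letters of 5 motifs searched there.

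Fcgbp promoter: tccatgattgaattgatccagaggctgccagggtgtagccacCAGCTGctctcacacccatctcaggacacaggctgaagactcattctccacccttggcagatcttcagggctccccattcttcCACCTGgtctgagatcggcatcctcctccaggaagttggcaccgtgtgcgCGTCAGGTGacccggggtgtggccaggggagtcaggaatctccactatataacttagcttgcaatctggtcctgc
Agr2 promoter: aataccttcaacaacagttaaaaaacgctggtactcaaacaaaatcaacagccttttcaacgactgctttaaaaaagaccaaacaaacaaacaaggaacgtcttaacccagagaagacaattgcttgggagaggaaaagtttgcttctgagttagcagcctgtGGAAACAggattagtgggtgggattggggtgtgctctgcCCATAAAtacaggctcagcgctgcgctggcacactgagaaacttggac
Ccl6 promoter: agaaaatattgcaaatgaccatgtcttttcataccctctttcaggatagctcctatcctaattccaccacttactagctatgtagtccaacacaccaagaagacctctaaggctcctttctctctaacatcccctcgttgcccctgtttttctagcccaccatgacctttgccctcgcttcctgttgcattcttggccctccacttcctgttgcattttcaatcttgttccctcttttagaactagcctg
Ccl9 promoter: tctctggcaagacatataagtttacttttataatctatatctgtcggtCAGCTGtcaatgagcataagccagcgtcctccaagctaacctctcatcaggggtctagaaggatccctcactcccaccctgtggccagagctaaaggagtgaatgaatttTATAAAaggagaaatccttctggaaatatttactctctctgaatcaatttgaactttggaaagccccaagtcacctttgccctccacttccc

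The Fcgbp promoter held 3 matches of the E-box CAGNTG (read on both strands), the first bases of which lie at −208, −125 and −72 from the start, and the last of them overlaps a match of the cAMP response motif TGACG (both strands). The Agr2 promoter held 1 match of the forkhead motif TGTTTNC (both strands) at −87 to −81 and 1 of the Cdx motif TTTATNG (both strands) at −48 to −42. The Ccl9 promoter held the TATA box TATAAA (gene strand) at −92 to −87 and 1 E-box, whereas none of these motifs was in the 250 bases of Ccl6. Among 32851 promoters of this length, 44.8% held the E-box, 17.8% the cAMP response motif, 17.8% the forkhead motif, 9.81% the Cdx motif and 7.59% the TATA box. Ccl6 and Ccl9 lie 9245 bases apart on chromosome 11, and 146 of 292 aligned positions of their promoters were identical (50%).

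UMIs of all 10 genes were counted in goblet-like cells of every library. Together they took 3.51% and 4.77% of all UMIs in goblet-like cells of controls 1 and 2 and 2.63% and 4.07% in those of knockouts 1 and 2. In enterocyte-like cells, the absorptive class, they took 0.0189 to 0.0315%. Paneth-like cells gave them 3.71 to 4.22%, which lies within the goblet-like range, so the products do not separate these 2 secretory classes as a sum. Since the classes are made from these same cells, their levels are given as a description with no test.

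**Figure D1:**
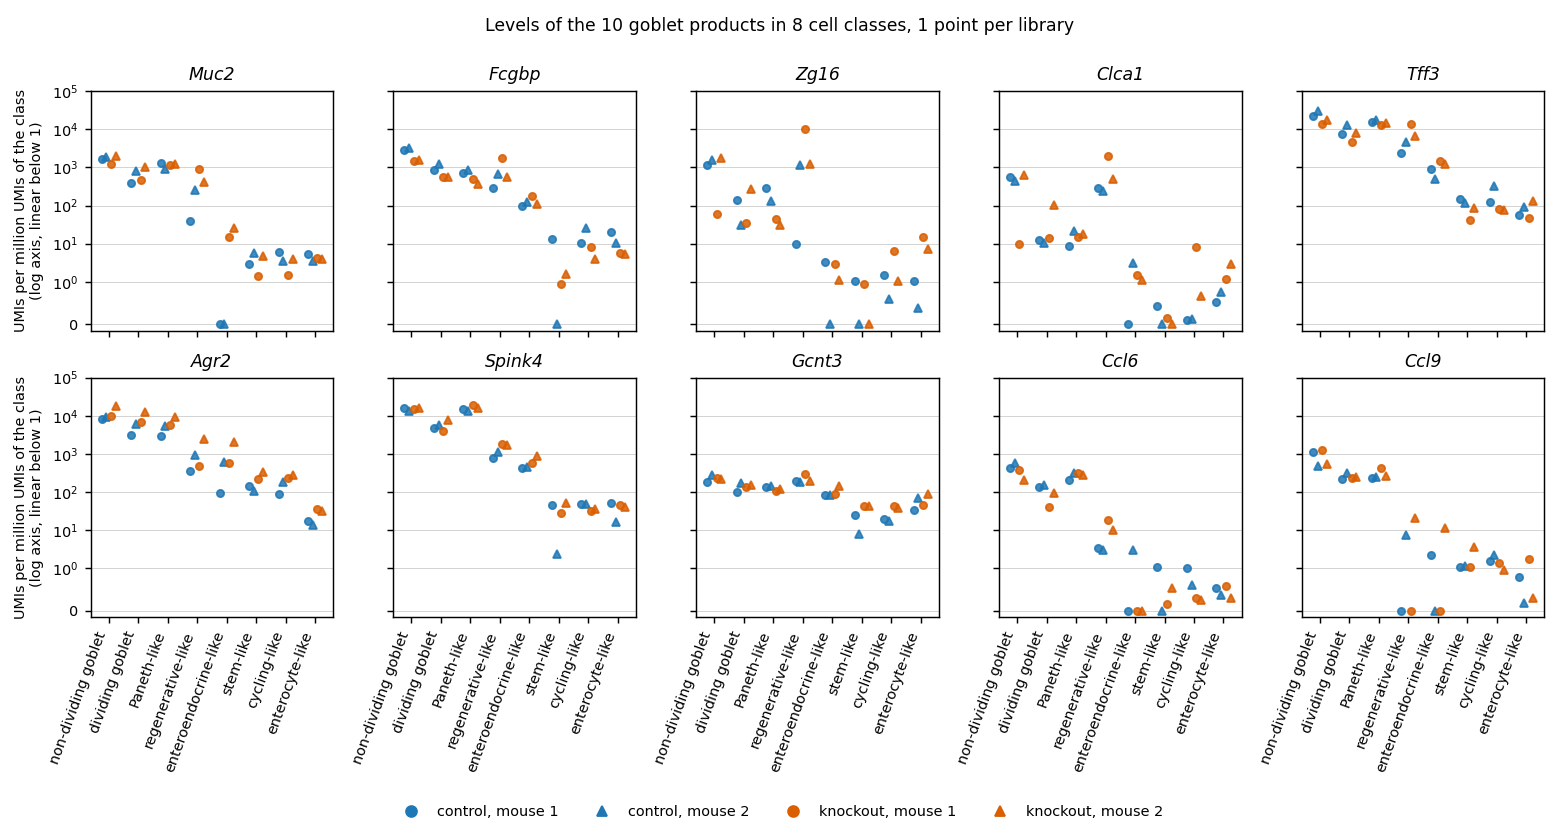
Level of each of the 10 goblet products (CPM of the class, log axis, linear below 1) in 8 sets of cells, 1 point per library, coloured by library. The points of non-dividing goblet-like cells and of Paneth-like cells sit high for most products, Clca1 is near 10 to 20 in Paneth-like cells, and Zg16 in regenerative-like cells runs from 10.1 to 10446.

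Of the gel proteins, Muc2 (ENSMUSG00000025515, chr7:141690340-141754693, plus strand; coordinates are GRCm38) had 1003 and 1455 CPM in the controls against 725 and 1378 in the knockouts in goblet-like cells. In Paneth-like cells it was at 1341 and 918 CPM in the controls against 1184 and 1220.3 in the knockouts, overlapping the goblet-like range, and in enterocyte-like cells at 3.58 to 5.29 CPM. Fcgbp (ENSMUSG00000047730, chr7:28071236-28120862, plus strand) had 1844 and 2399.7 CPM in the controls against 883 and 928 in the knockouts in goblet-like cells. Both controls stood above both knockouts for Fcgbp. In Paneth-like cells it had 706 and 859 CPM in the controls against 504 and 359 in the knockouts, all below the goblet-like range. Both knockouts lay below both controls there too. Enterocyte-like cells had 5.23 to 20.4 CPM of Fcgbp.

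The other 2 gel proteins were uneven between libraries. Zg16 (ENSMUSG00000049350, chr7:127050156-127087328, minus strand) had 622 and 962 CPM in the controls against 43.9 and 834 in the knockouts in goblet-like cells, so knockout 1 alone was low. Its model overlaps that of Gm44939, a feature of the same matrices, and since the counting strand is not stated, reads could be split between them. Clca1 (ENSMUSG00000028255, chr3:145003817-145032776, minus strand) had 281 and 261 CPM in the controls against 12.8 and 299.9 in the knockouts, again with knockout 1 alone low. Clca1 separated goblet-like from Paneth-like cells in 3 of 4 libraries, since Paneth-like cells had 8.61 to 21.01 CPM. UMIs of both genes were also found in the regenerative-like class, a cluster led by Clu, Anxa1, Ly6d and F3, where Zg16 had 10.1 and 1193 CPM in the controls against 10446 and 1262 in the knockouts and Clca1 had 283 and 244 CPM in the controls against 2040.0 and 504 in the knockouts. That class held 11, 61, 13 and 127 cells in these libraries, and single cells carried much of these levels. Without the cell with most UMIs of the gene in each library, Zg16 had 4.16 and 213 CPM in the controls against 33.5 and 796 in the knockouts and Clca1 0 and 126 CPM in the controls against 123 and 399 in the knockouts. In the same class Fcgbp was at 283 to 1776, Muc2 at 40.4 to 907 and Tff3 at 2350 to 13987 CPM, overlapping their goblet-like ranges. Without the cell with most UMIs of each gene per library, they were at 4.16 to 494, 4.16 to 341 and 12.5 to 5941 CPM, below those ranges.

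The folding enzyme Agr2 (ENSMUSG00000020581, chr12:35992907-36004087, plus strand) had 5639 and 8109 CPM in the controls against 8098 and 14481 in the knockouts in goblet-like cells, and 3006 to 9229 CPM in Paneth-like cells. Its range in enterocyte-like cells was 13.6 to 35.7 CPM. Gcnt3 (ENSMUSG00000032226, chr9:70031496-70038088, minus strand) had 144 and 232 CPM in the controls against 173 and 178 in the knockouts in goblet-like cells. Gcnt3 was also measured in most other classes, with 103 to 144 CPM in Paneth-like, 81.6 to 141 CPM in enteroendocrine-like, 186 to 293 CPM in regenerative-like and 34.4 to 88.3 CPM in enterocyte-like cells. Goblet-like cells held only 29.0 to 46.8% of a library's Gcnt3 UMIs, and the regenerative-like range overlapped theirs.

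Of the small secreted proteins, Tff3 (ENSMUSG00000024029, chr17:31125306-31129646, minus strand) had 14498 and 23199 CPM in the controls against 7924 and 11623 in the knockouts in goblet-like cells. Paneth-like cells had 15768 and 17158 CPM of Tff3 in the controls against 13009 and 14494 in the knockouts, within the goblet-like range. Both knockouts lay below both controls there too. Tff3 was higher in the knockout of both mice in regenerative-like cells (2350 and 4748 against 13987 and 6592 CPM). The same held in enteroendocrine-like cells (902 and 499 against 1477 and 1198 CPM). These 2 classes were not tested. Enterocyte-like cells had 48.01 to 134 CPM of Tff3. Spink4 (ENSMUSG00000028415, chr4:40920052-40931395, plus strand) had 10160.4 and 10219 CPM in the controls against 7673 and 10502 in the knockouts in goblet-like cells, and in Paneth-like cells it had 15393 and 13471 CPM in the controls against 19274 and 16241 in the knockouts. Every Paneth-like value of Spink4 lay above every goblet-like value, although the non-dividing goblet-like cells alone reached 13265 to 15830.2 CPM, which overlaps the Paneth-like range. Between 26.9% and 49.0% of a library's Spink4 UMIs were in Paneth-like cells.

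The chemokine Ccl6 (ENSMUSG00000018927, chr11:83587882-83593087, minus strand) had 279 and 414 CPM in the controls against 157 and 135 in the knockouts in goblet-like cells, with both knockouts below both controls. In Paneth-like cells it had 210.2 and 316 CPM in the controls against 323 and 276 in the knockouts, where the groups overlapped, and in enterocyte-like cells 0.29 to 0.585 CPM. Ccl9 (ENSMUSG00000019122, chr11:83572919-83578636, minus strand) had 648 and 409.6 CPM in the controls against 581 and 359 in the knockouts in goblet-like cells, where library 1 of each group was above library 2. Goblet-like cells held 74.0 to 90.9% of a library's Ccl9 UMIs, and Paneth-like cells had 233 to 428 CPM. Of the 10 immune-cell markers listed, 7 were at 0 in goblet-like cells and the list summed to 7.85 to 9.47 CPM, so the markers of cells known for making these chemokines were near 0.

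Shares of cells with a UMI depend on depth, so each cell was thinned to 5000 UMIs, which left out 90 of 707 goblet-like and 287 of 1007 enterocyte-like cells. Free RNA in droplets gives a UMI to cells that do not make the gene, and the share in enterocyte-like cells is set beside each value for that reason. Tff3 had a UMI in 99.2 to 100% of goblet-like cells of a library (19.5 to 25.5% of enterocyte-like cells), Agr2 in 95.7 to 100% (6.19 to 11.8%), Spink4 in 91.1 to 97.6% (8.57 to 23.8%) and Fcgbp in 75 to 96.4% (1.89 to 10.6%). Most goblet-like cells also had Muc2, at 68.5 to 86.9% (0.917 to 4.76%), Ccl9, at 63.01 to 68.1% (0 to 1.06%), and Gcnt3, at 54.9 to 60.7% (8.99 to 32.5%). The remaining 3 were found in fewer cells: Ccl6 in 15.3 to 38.1% (0 to 0.529%), Clca1 in 6.45 to 19.5% (0.529 to 0.952%) and Zg16 in 2.42 to 16.7% (0 to 2.75%). Without thinning, the goblet-like shares were 21.5 to 48.5% for Ccl6, 9.03 to 28.6% for Clca1 and 6.25 to 26.8% for Zg16.

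The UMIs of Zg16 and Clca1 came from a handful of cells. Among non-dividing goblet-like cells, the top 10% of cells with most UMIs of a gene held 92.1 to 100% of the Zg16 UMIs and 90.97 to 100% of the Clca1 UMIs of a library. A single cell held 1513 of 2555 Zg16 UMIs in control 1, 630 of 2524 in control 2, 50 of 59 in knockout 1 and 1062 of 3410 in knockout 2. The same 10% held 64.7 to 86.98% of Ccl6, and between 21.9% and 53.9% of each of the other 7. For Gcnt3, Agr2 and Spink4 the range was 28.2 to 32.3%, 28.6 to 43.7% and 27.3 to 27.9%, so their UMIs were spread over many more of the cells.

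**Figure D2:**
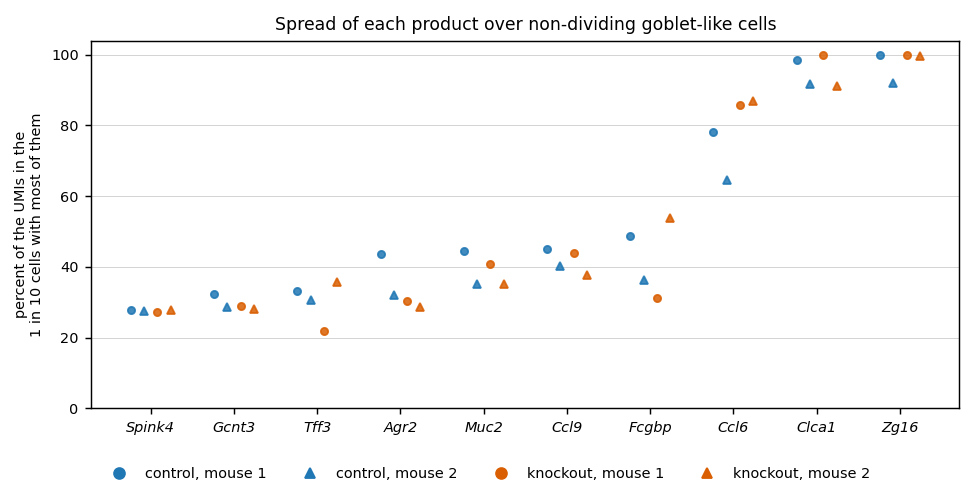
Share of a product's UMIs (percent) held by the top 10% of non-dividing goblet-like cells, 1 point per library and 1 column per product. Zg16 and Clca1 sit above 90% in all 4 libraries, Ccl6 between 64.7% and 87.0%, and the other 7 products between 21.9% and 53.9%.

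Across non-dividing goblet-like cells thinned to 5000 UMIs, 4 pairs of products had mean correlations above 0.5. The mean Spearman correlation over the 4 libraries was 0.56 (range 0.47 to 0.66) for Fcgbp with Tff3, 0.55 (range 0.34 to 0.70) for Tff3 with Spink4, 0.52 (range 0.33 to 0.67) for Muc2 with Tff3 and 0.51 (range 0.39 to 0.58) for Zg16 with Clca1. The 2 chemokines did not go together within cells: their correlation was −0.12 (range −0.17 to −0.08), below 0 in all 4 libraries, and that of Clca1 with Ccl9 was −0.15 (range −0.23 to −0.08). These are descriptions of cells that share a library and a depth. Over 25 sums of a class in a library, by contrast, Ccl6 and Ccl9 correlated at 0.969 (Pearson, log2 of CPM + 1) and Zg16 and Clca1 at 0.954; these sums differ mainly in their class.

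The genes with profiles most like Muc2 over those 25 sums, among 10843 other genes with at least 10 CPM in a sum, were Tpsg1 (0.974), Ano7 (0.968), Spdef (0.963), Defa24 (0.954) and Ern2 (0.953), each value being a Pearson correlation. Those most like the mean of the 10 were Spats2l (0.980), Qsox1 (0.973), Smim14 (0.970), Tpsg1 (0.968) and Spdef (0.964). Spdef is a transcription factor known in goblet cell maturation, Ern2 a stress sensor of the endoplasmic reticulum in mucous cells, and Qsox1 a sulfhydryl oxidase. Tpsg1, Spdef and Ern2 are among the 20 goblet markers used to name the classes, and Defa24 is among the 18 Paneth markers used for that.

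Each of the 10 products was a smaller share of the RNA in dividing than in non-dividing goblet-like cells. Both states were summed in each of the 4 libraries and compared within libraries. In the edgeR quasi-likelihood test with the library as a block, all 10 passed an adjusted p under 0.05, all lower in dividing cells, while 23.1% of the 9645 genes tested were called lower (44.1% in either direction). Their median log2 fold change was −1.76, against −0.03 over all genes. Without TMM factors, the edgeR scaling between sums, that median over all genes moved to 0.24 and 12.2% were called lower and 36.1% higher, against 21% higher with them. All 10 were still called lower then, and also in DESeq2 (10.5% of genes lower).

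**Figure D3:**
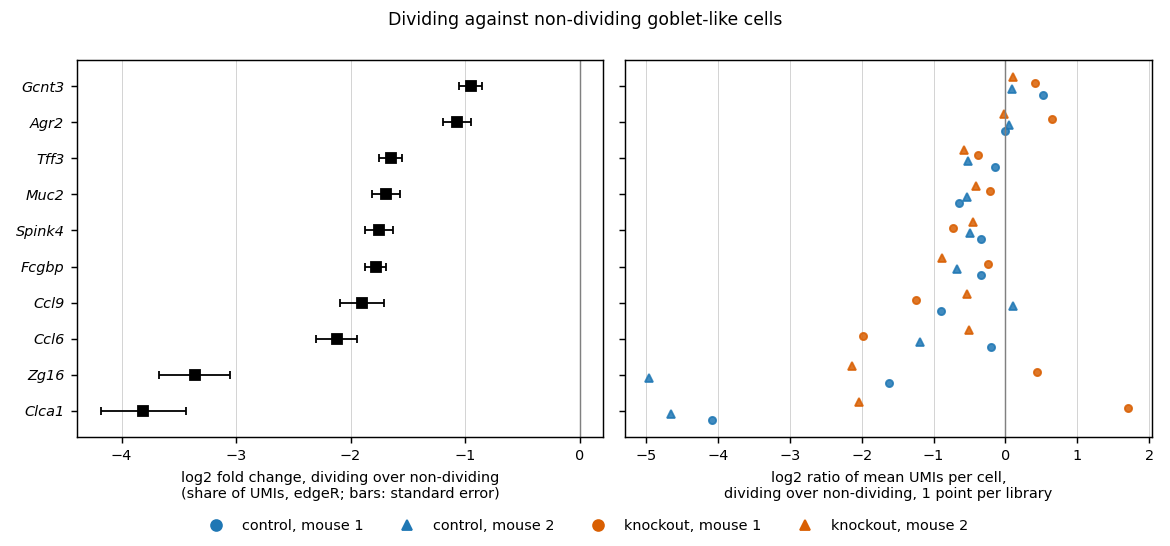
Left, log2 fold change of each product in dividing against non-dividing goblet-like cells (edgeR, bars are ± 1 SE); right, log2 of the ratio of UMIs per cell in dividing to non-dividing cells, 1 point per library. All 10 fold changes are below 0, from −3.81 for Clca1 to −0.95 for Gcnt3, while the per-cell ratios of Agr2 and Gcnt3 lie between 0.984 and 1.57, at or above 0 on the log2 axis but for 2 Agr2 points just below it.

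Clca1 and Zg16 fell furthest. Clca1 had 559 and 428 CPM in the controls against 10.05 and 639.8 in the knockouts in non-dividing cells. In dividing cells it had 12.3 and 10.3 CPM in the controls against 14.4 and 105 in the knockouts, a log2 fold change of −3.81 ± 0.37 (SE, adjusted p = 5.53e-09), rank 4 from the lowest of 9645 genes by estimate. Knockout 1 did not follow the other 3 libraries, since Clca1 was low there in both states. Zg16 had 1124 and 1586 CPM in the controls against 59.3 and 1808 in the knockouts in non-dividing and 137 and 30.9 CPM in the controls against 35.4 and 275 in the knockouts in dividing cells (log2 fold change −3.36 ± 0.31, adjusted p = 3.15e-09). Both rest on the few cells described above.

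Among the products spread over many cells, Fcgbp had 2869.7 and 3195 CPM in the controls against 1485 and 1559.5 in the knockouts in non-dividing cells. In dividing cells it had 853 and 1214 CPM in the controls against 552 and 566 in the knockouts, and it fell within each library (log2 fold change −1.78 ± 0.09, edgeR adjusted p = 7.57e-14). Muc2 went from 1637 and 1897 CPM in the controls against 1212 and 2012 in the knockouts to 392 and 795 CPM in the controls against 458 and 1014 in the knockouts (−1.69 ± 0.12, adjusted p = 4.95e-11). The log2 fold change was −1.65 ± 0.10 for Tff3, −1.75 ± 0.12 for Spink4, −2.12 ± 0.18 for Ccl6 and −1.90 ± 0.19 for Ccl9. The 2 enzymes had the smallest estimates, −1.07 ± 0.12 for Agr2 and −0.95 ± 0.10 for Gcnt3, at ranks 503 and 656 from the lowest.

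Dividing cells held more RNA: their medians were 41993, 37336, 26888 and 22763 UMIs per cell, against 18136, 25966, 13526 and 15089 in non-dividing cells, in the order controls 1 and 2, knockouts 1 and 2. Counted per cell instead of in CPM, Fcgbp in dividing cells was at 0.54 to 0.844 times its level in non-dividing cells over the 4 libraries, Muc2 at 0.638 to 0.858, Tff3 at 0.67 to 0.9 and Spink4 at 0.604 to 0.79 times. Agr2 was at 0.984 to 1.57 times and Gcnt3 at 1.06 to 1.44 times. Fcgbp, Muc2, Tff3 and Spink4 were lower per cell in every library, while the UMIs of Gcnt3 per cell were higher in every library and those of Agr2 were between slightly lower and higher. Ccl9 per cell was at 0.42 to 1.08 times and Ccl6 at 0.253 to 0.873 times. Zg16 and Clca1 were lower per cell in 3 libraries, at 0.0322 to 0.325 and 0.0397 to 0.243 times, but in knockout 1 they were at 1.36 and 3.25 times.

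Most genes of the lists for mucin folding, glycosylation and exocytosis also fell, by the same test and threshold, which called 23.1% of all genes lower and 21% higher. Of the genes listed for mucin folding in the endoplasmic reticulum, 30 of 31 tested were lower in dividing cells and 0 higher, among them the sulfhydryl oxidase Qsox1 (−1.44 on the log2 scale) and Ern2 (−1.35). Mucin glycosylation gave 24 lower and 0 higher of 29, led by the sialyltransferase St3gal1 (−2.18). Granule exocytosis gave 14 lower and 2 higher of 17, led by the actin-severing protein Scin (−3.31). Goblet transcription factors gave 10 lower and 0 higher of 14, with Creb3l4 at −1.26 and Spdef at −1.10. Other secreted products and mucins gave 13 lower and 2 higher of 20, and 4 other chemokines 1 of each. The median changes were −0.76 for folding, −0.64 for glycosylation, −1.20 for exocytosis and −0.60 for transcription factors, against −0.03 over all genes.

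In knockout goblet-like cells, Fcgbp, Tff3 and Ccl6 were lower and Agr2 was higher in both mice. With 2 libraries a group, whether this passes the test depends on the model. The edgeR test with the group as its only term called 2 of 10239 genes (0.0195%) and none of the 10 products. Of the products 3 had an unadjusted p under 0.05 in it, against 1551 of the 10239 genes. DESeq2 with the group alone called Fcgbp and Ccl6 lower (0.493% of genes). With the mouse as a block, edgeR called 16.9% of genes: 7 of the 10 products were lower (7.75% of genes) and 1 was higher (9.15%). DESeq2 with the same block called 3.69% of the 4365 genes it gave an adjusted p: 3 products lower (1.56%) and 1 higher (2.13%). The edgeR fit with the block has 1 residual degree of freedom, and its prior degrees of freedom were infinite in goblet-like cells, so it takes the spread of a gene from other genes and hardly weighs whether the 2 mice gave the same fold. These prior degrees of freedom were also infinite in dividing cells, and 132.8 in non-dividing ones. In these sets of cells, p-values of edgeR with the block do not measure a gene's own spread between the libraries. Below, "rose" and "fell" are used in this comparison only where both tools called the gene with the block.

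**Figure D4:**
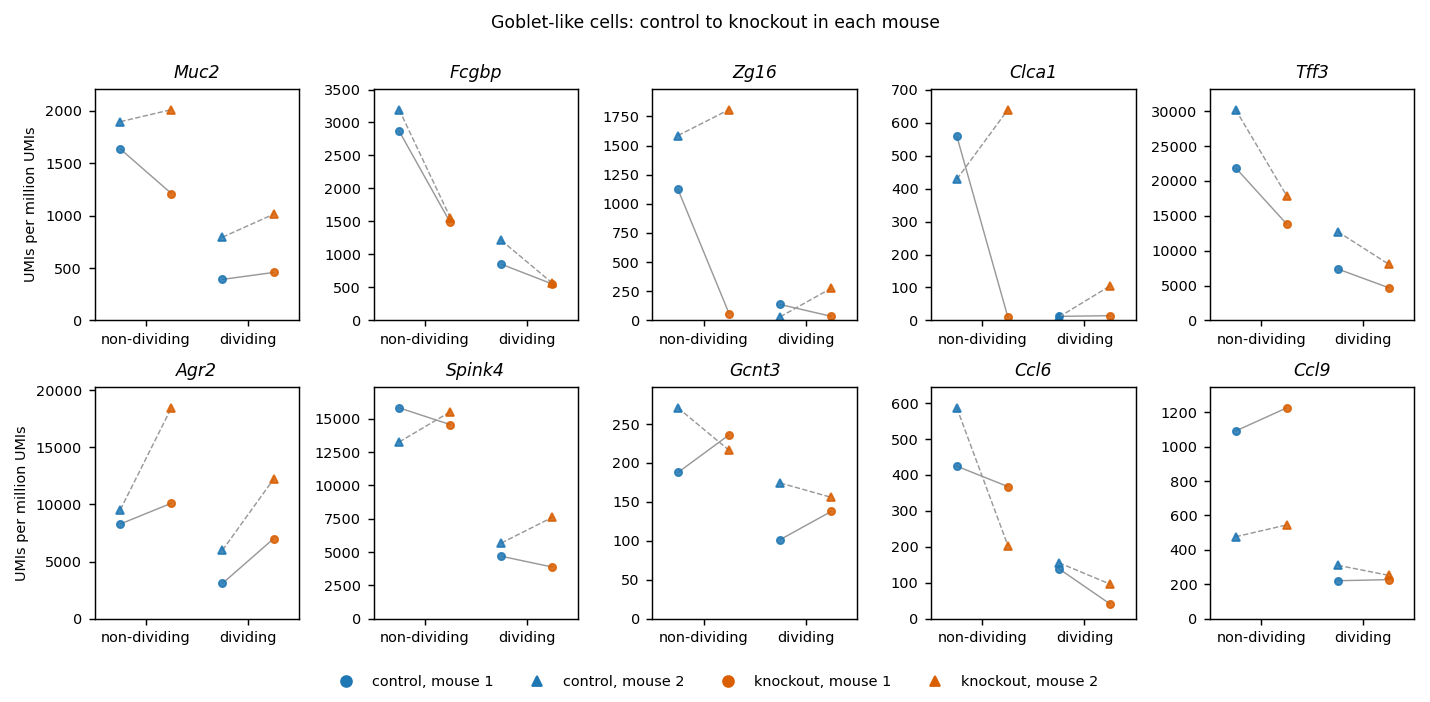
Level of each product (CPM of the class, axis from 0) in non-dividing and dividing goblet-like cells, with a line from the control to the knockout library of each mouse. For Fcgbp, Tff3 and Ccl6 the lines go down in both mice and both states, for Agr2 they go up, and for Zg16 and Clca1 in non-dividing cells they go down steeply in mouse 1 and up in mouse 2.

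Fcgbp, the mucus protein, fell in goblet-like cells. Its levels above give knockout-to-control ratios of 0.479 in mouse 1 and 0.387 in mouse 2. The log2 fold change was −1.30 ± 0.10 (SE, edgeR with the block, adjusted p = 3.49e-35). It was −1.32 ± 0.17 with the group alone (adjusted p = 0.07), and the DESeq2 adjusted p was 8.11e-09 without and 3.24e-23 with the block. The groups did not overlap in non-dividing cells, where the change was −1.04 ± 0.14 (adjusted p = 5.14e-09 in edgeR and 4.86e-10 in DESeq2, both with the block), nor in dividing cells, where it was −0.92 ± 0.10 (1.53e-18 and 7.19e-07). Fcgbp was called by DESeq2 in all 3 sets with or without the block, and by edgeR with the group alone in goblet-like cells whichever library was left out (−1.52 to −1.07). Of the same 4 fits, 2 called Tff3, those without knockout 2 (−1.40) and without control 1 (−1.35), and 2 called Ccl6, those without control 1 (−1.62) and without knockout 1 (−1.39).

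Tff3, the trefoil peptide, also fell. Its knockout-to-control ratio in goblet-like cells was 0.547 in mouse 1 and 0.501 in mouse 2, a log2 fold change of −1.02 ± 0.09 (SE, edgeR with the block, adjusted p = 1.01e-26), with an adjusted p of 0.176 for the group alone and 6.83e-19 in DESeq2 with the block. In non-dividing cells Tff3 had 21872 and 30219.7 CPM in the controls against 13816 and 17864 in the knockouts, with both knockouts below both controls (−0.76 ± 0.13, adjusted p = 1.12e-05 with the block). In dividing cells it had 7375 and 12726 CPM in the controls against 4680.5 and 8040.0 in the knockouts. There control 1 lay below knockout 2, so the groups overlapped, but the knockout was lower within each mouse (−0.72 ± 0.08, adjusted p = 1.85e-15 with the block and 0.371 without).

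Ccl6 fell in goblet-like cells by 1.32 ± 0.11 on the log2 scale (edgeR with the block, adjusted p = 7.84e-30; 0.096 with the group alone), and by DESeq2 the adjusted p was 3.5e-06 without and 0.0133 with the block. Non-dividing cells had 424 and 587 CPM in the controls against 368 and 204 in the knockouts, with knockout-to-control ratios of 0.866 in mouse 1 and 0.347 in mouse 2. There the edgeR fit with the block gave −0.91 ± 0.15 (adjusted p = 5.94e-06) and DESeq2 with the block did not call it (adjusted p = 0.822). Dividing cells had 139 and 156 CPM in the controls against 40.9 and 96.2 in the knockouts, with −1.22 ± 0.15 (adjusted p = 8.34e-14) in edgeR with the block. There 1 cell held 236 of the 327 Ccl6 UMIs of control 1. Without the cell with most Ccl6 UMIs in each library, the levels were 39.5 and 120 CPM in the controls against 22.3 and 84.6 in the knockouts. Control 1 then lay below knockout 2, so the groups overlapped, but Ccl6 was still lower in the knockout of each mouse. Its neighbour Ccl9 gave −0.26 ± 0.10 in goblet-like cells (adjusted p = 0.0635), with ratios of 0.897 and 0.876 in the 2 mice. The difference between the changes of these 2 genes was not tested.

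Agr2, the mucin-folding enzyme, rose in goblet-like cells. The knockout-to-control ratio was 1.44 in mouse 1 and 1.79 in mouse 2, with a log2 fold change of 0.59 ± 0.09 (SE, edgeR with the block, adjusted p = 8.86e-09). The group alone gave an adjusted p of 0.346, since control 2 and knockout 1 were almost equal, and DESeq2 with the block gave 8.58e-05. With the group alone the change was 0.09 without knockout 2 and 1.04 without knockout 1, which was called. In dividing cells the change was 1.05 ± 0.08 (adjusted p = 1.64e-32 in edgeR and 8.58e-18 in DESeq2, both with the block), with 3083 and 5989.6 CPM in the controls against 6995 and 12202 in the knockouts, so that both knockouts stood above both controls. In non-dividing cells it had 8285 and 9529 CPM in the controls against 10102 and 18449 in the knockouts, and edgeR with the block gave 0.57 ± 0.14 (adjusted p = 0.00353), which DESeq2 with the block did not call (adjusted p = 0.822).

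Muc2 and Spink4 were called lower in goblet-like cells by edgeR with the block (−0.36 ± 0.10, adjusted p = 0.00465, and −0.27 ± 0.09, adjusted p = 0.0237) but not by DESeq2 with the block (adjusted p = 0.165 and 0.737). Their knockout-to-control ratios were 0.723 and 0.947 for Muc2 and 0.755 and 1.03 for Spink4 in mice 1 and 2. Within the states neither was called by any of these fits: edgeR with the block gave Muc2 −0.22 ± 0.14 in non-dividing and 0.23 ± 0.10 in dividing cells, and Spink4 0.01 ± 0.13 and 0.02 ± 0.08. Gcnt3 had a change of −0.16 ± 0.11 in goblet-like cells (adjusted p = 0.358).

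The proportion of dividing cells differed between the groups and goes with these class-wide values. Dividing cells were 27.96% (21.6 to 34.99%) and 28.9% (20.1 to 38.95%) of goblet-like cells in controls 1 and 2, and 44.4% (36.2 to 52.9%) and 53.9% (47.9 to 59.9%) in knockouts 1 and 2, where the brackets hold exact Clopper-Pearson 95% intervals that cover counting error only. The share was higher in the knockout of both mice, by 16.5 and 25.1 percentage points, with an exact permutation p of 0.333, two-sided, the smallest that 2 against 2 libraries can give. Goblet-like cells themselves were 16.2, 14.2, 8.85 and 14.7% of cells in the 4 libraries (exact permutation p = 0.667). Within each state Fcgbp and Tff3 were also lower and Agr2 higher in both mice. Within dividing cells the 17 cycling markers still summed to 2570.3 and 2268 CPM in the controls against 3337 and 3085 in the knockouts. Paneth markers in goblet-like cells moved in the same direction as Fcgbp and Tff3: their sums, given above, were lower in the knockout of each mouse. In non-dividing cells these sums were 112488 and 113505 CPM in the controls against 96070.3 and 92619.7 in the knockouts. The part of division and of Paneth markers in the changes of the products was not tested.

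Zg16 and Clca1 gave no stable answer between the groups. In goblet-like cells the knockout-to-control ratio of Zg16 was 0.0706 in mouse 1 and 0.868 in mouse 2, and that of Clca1 0.0457 and 1.15. The edgeR fit with the block still called both (−1.80 ± 0.12 and −1.48 ± 0.12), while DESeq2 with the block did not (adjusted p = 0.58 and 0.647). Their UMIs also sat in cells that were not always counted as goblet-like: of all Zg16 UMIs of a library, 88.5, 40.7, 8.78 and 54.7% were in goblet-like cells, and 0.0923, 57.1, 78.9 and 43.8% in regenerative-like ones. In knockout 1, 1 regenerative-like cell held 1103 of the 1106 Zg16 UMIs of that class.

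When the 10 genes were kept among those used for clustering, some of these cells joined the goblet-like class. Zg16 then had 1126 and 1606 CPM in the controls against 1111 and 2866 in the knockouts in non-dividing cells, so that knockout 1 was level with control 1, and its change with the block was 0.38 (adjusted p = 0.134). In dividing cells it had 137 and 2485 CPM in the controls against 34.8 and 244 in the knockouts, a change of −3.01 with the block. Clca1 changed by −0.25 in non-dividing and −1.73 in dividing cells in the same fits. Fcgbp, Tff3, Ccl6 and Agr2 kept their direction and their call there, with changes in non-dividing cells of −0.89, −0.63, −0.82 and 0.55.

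Whether the knockout effect differed between dividing and non-dividing cells was tested as an interaction over the same 8 sums. Clca1 alone was called (0.0104% of 9645 genes, all of them this gene), with a difference of 3.36 ± 0.49 and an adjusted p of 0.0314: its control values fell from non-dividing to dividing cells, while knockout 1 was low in both. The call was lost without TMM factors (3.32, adjusted p = 0.0535), and the difference changed sign, to −1.06, when the 10 genes were used for clustering. For the other 9 the difference ran from −0.28 for Ccl9 to 1.94 for Zg16 with adjusted p of 1, and for Agr2 it was 0.47 ± 0.22. A difference in the Agr2 effect between the states is thus not shown.

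Agr2 was higher in the knockout of both mice in each of the 8 sets of cells in its plot, that is, in both goblet-like states and in 6 other classes. Paneth-like cells had 3006 and 5346 CPM in the controls against 5565 and 9229 in the knockouts, with a log2 fold change of 0.73 ± 0.25 (edgeR, group alone, adjusted p = 0.548; 0.0773 with the block). Cycling-like cells, a class of undifferentiated dividing cells, had 86.1 and 179.8 CPM in the controls against 227 and 270.5 in the knockouts, where the change was 0.94 ± 0.13 with the block (adjusted p = 0.000362; DESeq2 with the block 0.558). Stem-like cells had 146 and 104 CPM in the controls against 218 and 333 in the knockouts, and enteroendocrine-like cells had 91.4 and 614 CPM in the controls against 564 and 1986 in the knockouts. Enterocyte-like cells had 17.5 and 13.6 CPM in the controls against 35.7 and 31.9 in the knockouts, and regenerative-like cells 354 and 958 CPM in the controls against 482 and 2431 in the knockouts. The last 4 classes were not tested here, with as few as 11 cells in enteroendocrine-like cells of control 2, and low levels in them can hold free RNA, whose amount was not tested. Summed over all cells of a library, Agr2 had 1155 and 1448 CPM in the controls against 1231 and 3160.1 in the knockouts.

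**Figure D5:**
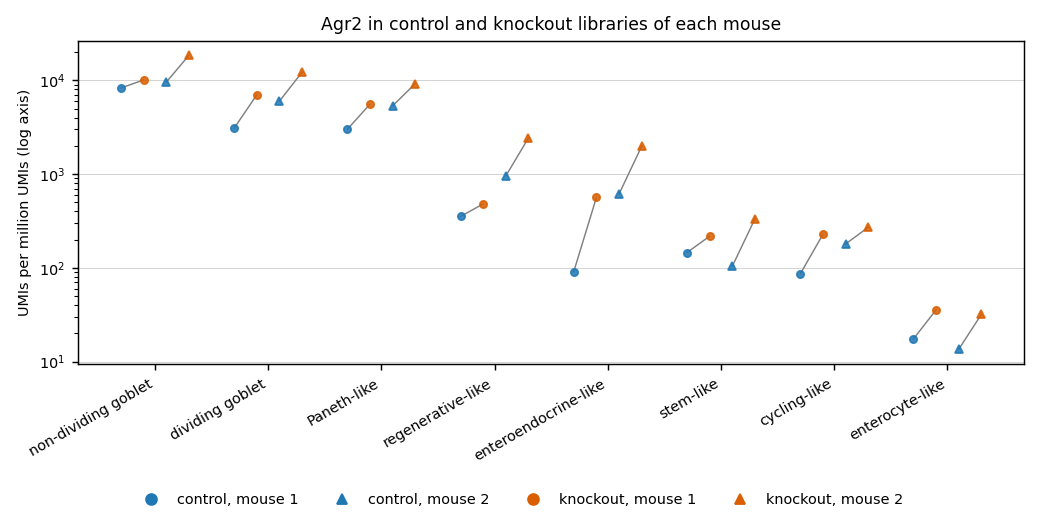
Level of Agr2 (CPM of the class, log axis) in 8 sets of cells, with a line from the control to the knockout library of each mouse. All 16 lines go up, from 13.6 to 31.9 in enterocyte-like cells of mouse 2 and from 9529 to 18449 in its non-dividing goblet-like cells, for example.

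Of the other products, Zg16 was the only one called in Paneth-like cells with the group alone (0.015% of 6685 genes were called lower). It had 285 and 129 CPM in the controls against 43.8 and 31.6 in the knockouts there, a log2 fold change of −2.57 ± 0.30 (edgeR, adjusted p = 3.02e-05), and both knockouts lay below both controls. These are 331, 129, 50 and 69 UMIs, of which single cells held 241 and 88 in the controls. Without the cell with most Zg16 UMIs in each library the levels were 79.1 and 43.9 CPM in the controls against 23.97 and 24.5 in the knockouts. The order of the groups was the same without those cells, at a much smaller distance.

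In cycling-like cells, whose UMIs of these genes are few, 8 of the 10 were tested. None was called with the group alone (0% of 11376 genes called), and 5 had an unadjusted p under 0.05, against 842 of the 11376 genes. With the block edgeR called 3 lower (3.82% of genes) and 3 higher (2.92%). Gcnt3 had 20.02 and 16.9 CPM in the controls against 44.04 and 38.7 in the knockouts, both knockouts above both controls, with a change of 1.12 ± 0.11 (SE, edgeR with the block, adjusted p = 1.3e-05), and DESeq2 called it with and without the block (0.000419 and 0.000302). Tff3 had 124 and 334 CPM in the controls against 79.7 and 76.2 in the knockouts and Fcgbp 10.2 and 25.3 CPM in the controls against 8.13 and 4.02 in the knockouts, which edgeR with the block called lower (adjusted p = 0.000623 and 0.00929) and DESeq2 with the block did not (0.918 and 1). The largest cluster of the class differed between the mice, cluster 5 in both libraries of mouse 1 and cluster 4 in both of mouse 2, although in control 2 it had only 74 cells against 63 of cluster 5.

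Over all cells of a library, fewer goblet cells and less RNA per goblet cell cannot be told apart. None of the 10 was called there with the group alone (0% of 13246 genes). An unadjusted p under 0.05 was found for 2 products, against 1141 of the 13246 genes. DESeq2 called Fcgbp lower (0.764%), and edgeR with the block called 4 lower (8.29% of genes). These were Fcgbp (−1.32 ± 0.13, adjusted p = 0.00324), Ccl6 (−0.90 ± 0.09, 0.00324), Tff3 (−0.83 ± 0.17, 0.0301) and Zg16 (−0.82 ± 0.20, 0.0465). Fcgbp had 358 and 438 CPM in the controls against 126 and 211 in the knockouts, and Ccl6 57.1 and 65.6 CPM in the controls against 29.4 and 38.7 in the knockouts, with both knockouts below both controls for each. DESeq2 with the block called 3 of these lower (5.2% of genes), all but Tff3 (adjusted p = 0.136).

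Among the genes that make and release mucus, edgeR with the block called some higher and some lower in knockout goblet-like cells. The same fit called 9.15% of all genes higher and 7.75% lower there, and 3.19% and 3.77% in dividing ones. All counts of called genes here are from it. With the group alone none of these lists had a call in goblet-like cells. There 4 of 14 transcription factors, 5 of 29 glycosylation, 8 of 31 folding, 4 of 17 exocytosis and 8 of 21 other secreted genes had an unadjusted p under 0.05. Over all genes 1551 of 10239 had one with the group alone. Folding in the endoplasmic reticulum had 10 higher and 3 lower of 31 tested in goblet-like cells, and 12 higher and 1 lower of 29 tested in dividing ones. This was not particular to goblet-like cells: in cycling-like cells it had 9 higher and 0 lower of 31 tested with the block. Over all genes 2.92% were called higher and 3.82% lower there. Examples in goblet-like cells are the reductase Dnajc10 (0.61), Creld2 (0.48) and the prolyl isomerase Fkbp11 (0.42), against the oxidase Qsox1 (−0.62), all as log2 fold changes. Granule exocytosis had 1 higher and 5 lower of 17 tested, with Sytl2 (−0.77) and Syt7 (−0.72) lower. Scin (−1.10) was also called lower, but it had 19.7 and 9.40 CPM in the controls against 3.21 and 10.1 in the knockouts. It was thus lower in mouse 1 only. The medians of the folding and exocytosis lists were 0.07 and −0.32, against −0.01 over all genes.

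Other secreted goblet products and mucins had 2 higher and 9 lower of 21 tested. Reg4, a secreted lectin of secretory cells, had 383 and 632 CPM in the controls against 1049 and 1857 in the knockouts in goblet-like cells, both knockouts above both controls, with a change of 1.42 (adjusted p = 1.93e-39). In dividing cells Reg4 was called with the group alone as well (2.07 ± 0.25, edgeR adjusted p = 0.0127). There 0.085% of 9407 genes were called, and none of the 10 products. Of the products 5 had an unadjusted p under 0.05 in that fit, against 1027 of the 9407 genes. Lypd8 (−0.89), known for keeping bacteria off the epithelium, and the hormone precursor Guca2a (−0.78) were lower in goblet-like cells with the block. Mucin glycosylation had 3 higher and 2 lower of 29 tested, near the shares over all genes, with the fucosyltransferase Fut2 (1.39) and the sulfotransferase Chst4 (0.85) higher and B4galnt2 (−0.63) and St3gal1 (−0.59) lower. The transcription factors had 2 higher and 3 lower of 14 tested, with Creb3l1 (0.40) higher and Sox9 (−0.54) lower. The other one called higher was Neurog3, the factor of enteroendocrine precursors, at 0.432 and 0 CPM in the controls against 11.4 and 7.35 in the knockouts, too few UMIs in the controls for a fold. Of 5 other chemokines tested, Ccl25 (−0.74) and Cxcl16 (−0.93) were lower and none higher. The 15 enteroendocrine markers summed to 234 and 180.2 CPM in the controls against 185 and 189 in the knockouts in goblet-like cells, with no common direction in the 2 mice.

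In non-dividing goblet-like cells none of the 10 products was called with the group alone (0% of 8590 genes). An unadjusted p under 0.05 was found there for 4 products, against 573 of the 8590 genes. DESeq2 called Fcgbp lower (0.00702%), and edgeR with the block called 5 lower (1.54% of genes) and 1 higher (1.97%). DESeq2 with the block called 2 lower (0.553%), Fcgbp and Tff3. In dividing cells edgeR with the block called 3 lower (3.77%) and 2 higher (3.19%), and DESeq2 with the block 2 lower (2.96%) and 1 higher (2.47%) of the 6 products it gave an adjusted p. DESeq2 with the group alone called Fcgbp lower there (0.0835%). Across the 10, the median change with the group alone was −0.55 in goblet-like, −0.36 in non-dividing and 0.09 in dividing goblet-like cells, against −0.02, −0.01 and −0.01 over all genes. The estimate was below 0 for 9 of the 10 in goblet-like cells, against 51.9% of all genes, for 7 in non-dividing and for 4 in dividing ones (51.1% of all genes in each). Agr2 was the 1 above 0 in goblet-like cells. With the block, Fcgbp, Tff3 and Ccl6 were lower there by both tools, Zg16 (−1.80) and Clca1 (−1.48) by edgeR alone. So were Muc2 and Spink4, which with Gcnt3 and Ccl9 were between −0.36 and −0.16 on the log2 scale with the block in goblet-like cells.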

How the data were processed

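UMI counts per gene and cell barcode were deposited by the authors as 1 matrix of called cells per library, for which the submitters' processing notes name Cell Ranger 3.0.1 and the build mm10 (software 3.0.0 per the file headers). Counting strand and annotation release are not given in the sources used here. No mitochondrial gene is among the features. The 10 genes and all gene lists were chosen with earlier results of these data known.

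Of 5602 barcodes, 173 with under 500 genes and 67 likely doublets were left out. The doublets were the highest Scrublet scores at 0.8% per 1000 barcodes in each library, since the automatic threshold marked only 18. The 5362 cells were clustered with scanpy 1.11.5 (2000 variable genes without the 10 products, 30 principal components, 15 neighbours, Leiden resolution 1, seed 1) into 16 clusters. A cluster was named from marker lists at a score of at least 0.5 with at least 3 markers detected. It stayed unnamed where another class had more markers among its 10 leading genes. The same held where none of these genes was a marker of its class and its depth was under 0.333 of the library median. This depth rule alone left 675 cells unnamed, those of clusters 9, 10 and 14. Cluster 6, at a depth of 0.224, stayed cycling-like with 1 such marker. Names rebuilt here may differ from those of the study. Dividing goblet-like cells were set apart by 50 cell-cycle genes.

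Counts were summed per library and class and tested two-sided with edgeR 4.0.16 (TMM, filterByExpr, quasi-likelihood, Benjamini-Hochberg adjusted p under 0.05 over all genes), with the group as the only term. The sets tested were all cells, goblet-like cells, both of their states, Paneth-like cells and cycling-like cells. Each library gave each set 20 cells or more. Stem-like and enterocyte-like cells also reached that number but were not tested. The edgeR tests were checked on simulated counts without a mouse effect, so that check does not cover mice that disagree. Numbers 1 and 2 pair the libraries, because both libraries of a number carry the same mouse tag in the files and the labels name 2 mice. Deviations of same-numbered libraries from their group means correlated across genes at 0.66 in all cells, 0.40 in goblet-like, 0.34 in non-dividing, 0.29 in dividing, 0.25 in Paneth-like and 0.52 in cycling-like cells. DESeq2 1.42.0 was an alternative, and its fit with the block was added after seeing the data. Named genes of other lists are those past the threshold with the largest changes, at most 4 per list (1 is not reported here), and alike genes are the 5 highest Pearson correlations. In the list counts, genes with too few counts were not tested. Depth per library limits precision as the totals show, and intervals cover counting error only. Promoters came from RefSeq (GRCm38.p6) and coordinates from the GRCm38 annotation.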

Additional observations from a re-analysis of the deposited data

Results flagged for a closer look

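For Clca1, the protease that processes the mucus gel, the test of a difference in the knockout effect between dividing and non-dividing goblet-like cells passed its threshold, but not under every setting. The interaction was 3.36 on the log2 scale (edgeR with the library as a block), and it was the only 1 of 9645 genes called. In non-dividing cells Clca1 was at 559 and 428 CPM in the controls against 10.05 and 639.8 in the knockouts, library 1 first, and in dividing cells at 12.3, 10.3, 14.4 and 105 CPM in that order. Knockout 1 had 10 Clca1 UMIs in all its 80 non-dividing cells. A few cells carry the gene: 1 cell held 613 of the 1272 Clca1 UMIs in non-dividing cells of control 1. The call was lost without TMM factors (adjusted p = 0.0535), and the sign turned when the 10 products were used for clustering (−1.06). Whether cluster assignment accounts for the difference was not tested.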

How the results depend on the processing

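Against no genes called with the group alone in all cells, 2 in goblet-like, none in non-dividing, 8 in dividing, 3 in Paneth-like and none in cycling-like cells, the replicate block in edgeR called 1685, 1731, 301, 655, 6 and 767 genes. DESeq2 called 119, 64, 3, 16, 1 and 51. DESeq2 with the replicate block, chosen after seeing the data, called 860, 161, 15 and 55 in the first 4 and 95 in cycling-like cells. Without the filter on low counts edgeR called 520 in goblet-like, 72 in non-dividing, 220 in dividing, 28 in Paneth-like and 302 in cycling-like cells. Without TMM factors it called 0 in goblet-like, 5 in dividing and 1 in Paneth-like cells. With the 10 products used for clustering it called 0 in goblet-like, 0 in dividing and 1 in Paneth-like cells, and with the replicate block added 1642 in goblet-like, 312 in non-dividing and 474 in dividing cells. Leiden resolution 0.6 gave 17 in goblet-like, 1 in non-dividing and 56 in cycling-like cells. Resolution 1.5 gave 39 in goblet-like, 1 in non-dividing, 5 in dividing and 1 in Paneth-like cells. Keeping doublets gave 51 in goblet-like, 1 in non-dividing and 1 in Paneth-like cells, and the lower quartile of cycling-like cells as the limit 1 in non-dividing ones. Leaving out 1 library at a time gave 15 to 284 in goblet-like, 12 to 45 in non-dividing, 33 to 178 in dividing, 10 to 114 in Paneth-like and 1 to 278 in cycling-like cells. Such a fit leaves 1 library in a group, which is assumed to vary like the other group.

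Between the states, 4252 genes were called, against 2484 by DESeq2, 1594 with cells thinned to 1 number of UMIs and 1774 with the lower quartile as the limit, which used the 2 knockout libraries only. All 10 products were lower and called in each of 14 alternatives. The interaction called 0 genes without TMM factors, 2 with the products used for clustering, 3 and 2 at Leiden resolutions 0.6 and 1.5, and 2 with doublets kept. Interaction and knockout test in dividing cells under the lower quartile were not run, as too few dividing control cells remained (18 and 7).

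Fcgbp, Tff3 and Ccl6 stayed below 0 and Agr2 above 0 in all alternatives run for goblet-like cells and both states. Directions turned elsewhere. In non-dividing cells Zg16 was at 0.52 with the products used for clustering (0.38 with the replicate block), and Spink4 at −0.01 without the filter, −0.06 at resolution 0.6, −0.05 at 1.5, −0.06 with doublets and −0.05 under the lower quartile. In dividing cells, with the products used for clustering, Muc2 was at −0.01, Zg16 at −3.25, Clca1 at −1.72, Spink4 at −0.04 and Gcnt3 at −0.06, and with the replicate block added Zg16 was at −3.01, Clca1 at −1.73, Spink4 at −0.12 and Gcnt3 at −0.03; Spink4 was at −0.04 with doublets kept. In the interaction, the products used for clustering gave −1.06 for Clca1 and −3.03 for Zg16. Leaving out 1 library at a time, the log2 changes ran from −2.12 to 0.26 for Zg16 in all cells. In goblet-like cells they ran from −0.91 to 0.13 for Muc2, −4.32 to 0.04 for Zg16, −4.54 to 0.12 for Clca1, −0.55 to 0.01 for Spink4, −0.52 to 0.24 for Gcnt3 and −0.58 to 0.07 for Ccl9. In non-dividing cells they ran from −0.62 to 0.17 for Muc2, −4.59 to 0.40 for Zg16, −5.69 to 0.35 for Clca1, −0.13 to 0.15 for Spink4, −0.29 to 0.21 for Gcnt3 and −0.56 to 0.85 for Ccl9. In dividing cells they ran from −0.49 to 0.93 for Muc2, −1.43 to 2.31 for Zg16, −0.54 to 0.56 for Spink4, −0.34 to 0.54 for Gcnt3 and −0.47 to 0.12 for Ccl9. Knockout 1 was the library whose absence turned Zg16 and Clca1 in goblet-like and non-dividing cells. The share of goblet-like cells differed by 0.49 points within mouse 2, against −3.43 over both. Unthinned, mean shares of goblet-like cells with a UMI were 94.7% for Fcgbp, 15.7% for Zg16, 20.1% for Clca1, 85.6% for Gcnt3, 33.2% for Ccl6 and 77.1% for Ccl9. The mean level of Zg16 in goblet-like cells was 1065 CPM with the products used for clustering, against 615. The cause of these shifts was not tested.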
